A study of Mus musculus with 6 samples.

Results

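RNA levels of ion channel genes were compared between mouse bone marrow mesenchymal stem cells with and without knock-down of the formin Dia2. The genes were chosen by symbol: potassium channels (Kcn), voltage-gated calcium channels (Cacna, Cacnb, Cacng), TRP channels of the C, M and V groups, Piezo, the CLC chloride family (Clcn), the anoctamins (Ano), and the store-operated pair Orai and Stim. This gave 165 of the 23358 rows of the deposited table, of which 163 matched by symbol, and Piezo1 and Piezo2 were found under their older names Fam38a and Fam38b. Kcnq1 and its antisense transcript were left out by the same choice. A further 2 rows match only by an updated symbol and were not included. A few rows that match by symbol encode no channel, such as Trpc4ap, a protein that binds Trpc4, and the auxiliary subunits are counted beside the pores.

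Ion channels set the membrane voltage and let calcium into the cell. Potassium channels hold the membrane negative, which drives calcium entry. Calcium enters through voltage-gated, stretch-gated and store-operated pores. In store-operated entry, Stim proteins sense low calcium in the endoplasmic reticulum and open Orai pores in the plasma membrane. Piezo and some TRP and K2P (tandem-pore potassium) channels respond to membrane tension, which is carried in part by the actin that formins build. In marrow stromal cells these channels are studied for their part in mechanical sensing, proliferation and bone formation. Most CLC proteins exchange chloride for protons in endosomes and lysosomes.

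The cells came from C57BL/6 mice, were at passage 6 to 12, and adhered for 24 h before overnight transfection. There were 6 libraries: 3 of cells transfected with a control siRNA and 3 of cells that received 50 nM of a Dia2 siRNA. RNA was collected 24 h after the medium was changed. All cells of both groups were thus exposed to transfection reagent and siRNA, and 1 siRNA sequence stands for the knock-down. The labels leave out whether replicate libraries represent separate cultures, and p-values therefore reflect how far these libraries differ among themselves, a spread that may be technical.

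Total counts ranged from 70538768 to 110006338 per library, every count was even, and the channel genes held 0.176% to 0.207% of them. The ribosomal precursor Rn45s took the largest share in control replicate 3 (11.7%) and Dia2 replicate 1 (10.9%), against 6.0% to 7.41% elsewhere. Of 12 mesenchymal stem cell markers 11 were tested and 10 were higher with Dia2 siRNA, where 29.3% of all tested genes were. Lepr did not pass. The summed level was 2914 to 3215 CPM in control and 5270 to 5338 CPM in Dia2 libraries. Cxcl12 (815 ± 126 and 2097 ± 72.6 CPM) and Itgb1 (1428 ± 58.6 and 1831 ± 61.4 CPM) held most of it. The rise of Cxcl12 made up the largest part of the difference. Thy1, a defining marker, had at most 10 counts in any library. CPM is the usual depth-scaled count, here with library totals adjusted by TMM factors for composition.

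Diaph3, which encodes Dia2, checks the labels. The 3 control libraries had 84.7, 80.1 and 84.8 CPM of it and the 3 Dia2 libraries 7.52, 8.37 and 7.39 CPM, a log2 fold change of -3.42 ± 0.07 (SE; edgeR adjusted p = 1.66e-11). Every Dia2 library lay far below every control library. The target of the siRNA is shown because it defines the perturbation; it lies in Diaph3 across the junction of exon 19, as most matching GENCODE transcripts number it (chromosome 14, 86910029 to 86910045, minus strand, GRCm38) and exon 20 (86906031 to 86906038).
Dia2 siRNA target: cagagtccatgattcagaacttaat

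Most channel genes were scarce in these cells. Of the 165 genes, 24 had no count in any library, 68 had counts too low to test, with at most 24 counts in a library, and 73 were tested. A count of 0 allows up to 6 counts (3 fragments), or 0.0534 to 0.0870 CPM on the TMM scale, so scarce expression below that level was not detectable. All members of the CLC, Piezo, and Orai and Stim families were tested, but 9 of 39 voltage-gated potassium pores and 4 of 14 K2P genes. In 25 genes the mean exceeded 10 CPM and in a further 22 it lay between 1 and 10 CPM. The 5 genes with the most counts held 56.5% of all channel counts.

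The order of abundance was set by a few genes of different families. Levels of different genes are given as CPM per kilobase of the length listed in the table. Trpc4ap led with 67.8 ± 2.98 CPM per kb in control cells (SD, n = 3), followed by Ano6, a calcium-activated phospholipid scramblase, at 44.9 ± 0.98, and Piezo1, the main stretch-gated cation channel of many adherent cells, at 38.5 ± 3.76. The calcium channel beta subunit gene Cacnb3 (26.3 ± 1.81), Trpm7 (24.8 ± 1.9) and Ano10 (22.9 ± 0.836) came next. Trpm7 differed from each of the other two by no more than its own SD or close to it, and Cacnb3 lay above Ano10 in all control libraries. With Dia2 siRNA Piezo1 stood at 49.9 ± 0.801 CPM per kb, above Ano6 at 47.9 ± 0.258. The bar plot of levels per length shows how steeply they fall off.

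**Figure D1:**
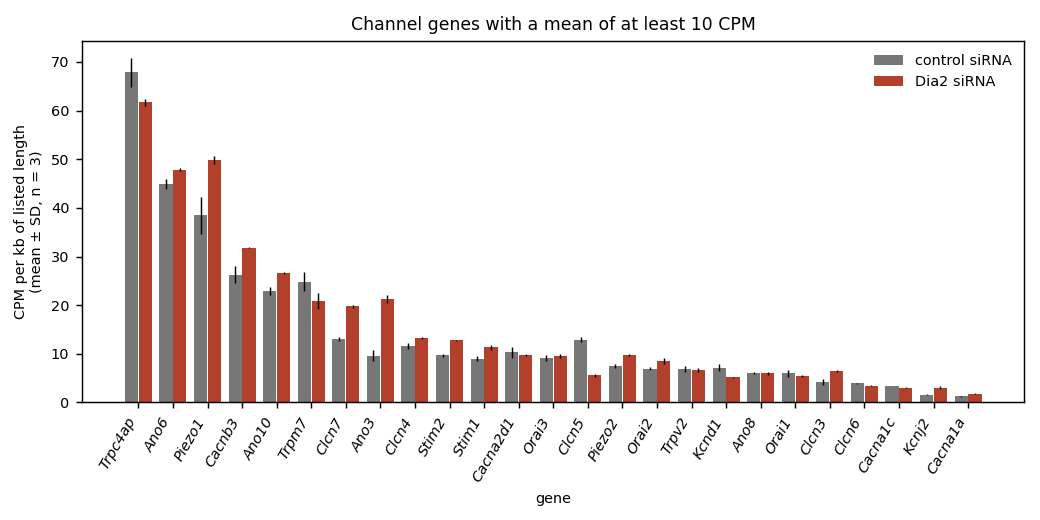
Levels of the 25 channel genes with a mean of at least 10 CPM, in CPM per kilobase of listed length, as bars (mean) with error bars (SD, n = 3 libraries) for control siRNA (grey) and Dia2 siRNA (red). Trpc4ap, Ano6 and Piezo1 stand highest, and Ano3 and Piezo1 show the widest gaps between the groups.

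With Dia2 siRNA, 29 of the 73 tested channel genes were higher and 14 lower at an adjusted p of 0.05, and 30 did not pass. The share that changed, 58.9%, was near the 59.2% of all 14151 tested genes, so the number of changed genes is not particular to channels. By direction, 39.7% were higher, where 29.3% of all tested genes were, and 19.2% were lower, where 29.9% were. The median log2 fold change was 0.19 over the channel genes and 0.01 over all tested genes. Changes of at least 2-fold were found in 14 channel genes, or 19.2%, beside 8.58% of all tested genes: 10 were higher (13.7%, beside 5.82%) and 4 lower (5.48%, beside 2.76%). Of these 10 higher genes, 3 (Cacna1g, Kcnq5 and Kcnj15) passed the expression filter only through the Dia2 group, where they were high. The libraries of the groups did not overlap in 49 of the 73 genes (67.1%, beside 64.6%), with the Dia2 libraries above in 33 (45.2%, beside 32.3%) and below in 16 (21.9%, beside 32.2%). Among all tested genes under 1 CPM, 21.2% changed at least 2-fold. Among the 47 channel genes with a mean of at least 1 CPM, 37 changed (78.7%, beside 65.8% of all such genes), 24 of them higher (51.1%, beside 31.2%) and 13 lower (27.7%, beside 34.6%), and 9 changed at least 2-fold (19.1%, beside 5.88%). These genes were listed with earlier results of these libraries known, and no test of the list as a whole was made. In bulk RNA, fewer cells of a type and less RNA per cell cannot be told apart.

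**Figure D2:**
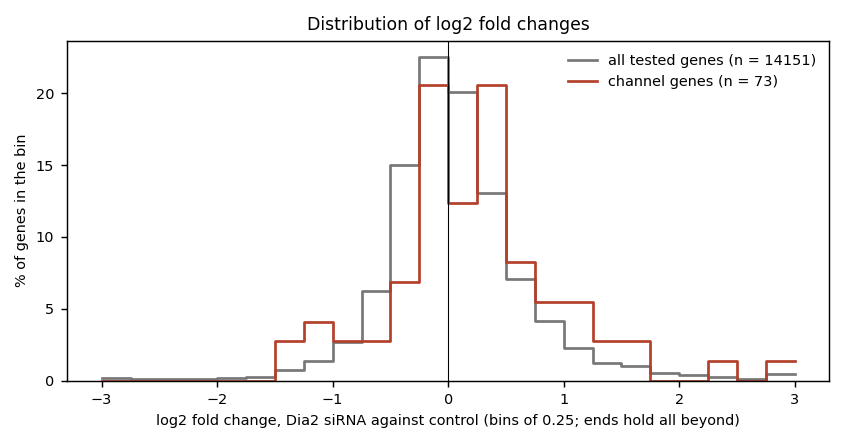
Percentage of genes in each bin of log2 fold change (Dia2 siRNA against control; x axis in bins of 0.25, the end bins holding all values beyond, y axis in % of genes) for the 73 tested channel genes (red) and all 14151 tested genes (grey). The channel genes have a median of 0.19 and reach from -1.50 to 2.82.

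**Figure D3:**
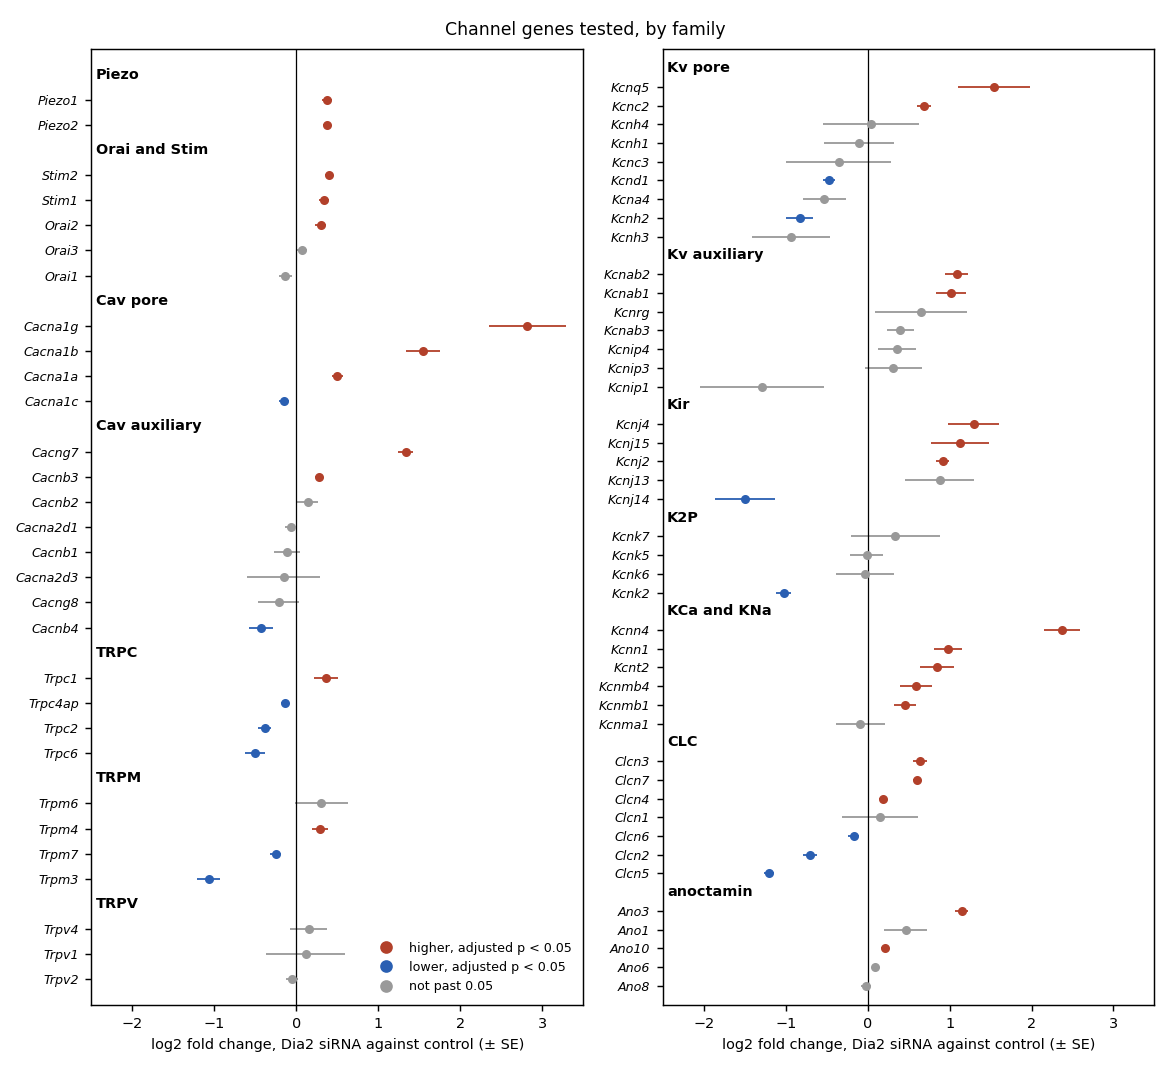
Log2 fold change with its SE for each tested channel gene (x axis), grouped by family, coloured by whether it was higher, lower or not past an adjusted p of 0.05. Both Piezo genes and 5 of 6 calcium- or sodium-activated potassium channel genes lie to the right, while the CLC family spreads to both sides.

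Both Piezo genes rose by nearly the same amount. Piezo1 (listed as Fam38a, chromosome 8, 122481698 to 122551329) had 339, 328 and 281 CPM in the control libraries and 403, 412 and 416 CPM in the Dia2 libraries. All Dia2 libraries were above all control libraries, and control replicate 3 was the lowest. The change was 1.3-fold (log2 fold change 0.38 ± 0.06 SE, edgeR adjusted p = 0.000299). Exons of Ctu2 on the opposite strand share 24.6% of the annotated Piezo1 exon bases, and with no stated strand setting those reads cannot be told apart. Piezo2 (listed as Fam38b, chromosome 18), the isotype best known from touch neurons, stood at 75.9, 83.8 and 81.6 CPM in control and 102, 103 and 107 CPM in Dia2 libraries. It was 1.29-fold higher (0.37 ± 0.05, adjusted p = 3.97e-05), again with no overlap. Per length, Piezo1 exceeded Piezo2 by a ratio of 5.15 ± 0.668 in control and 5.15 ± 0.0717 in Dia2 libraries (SD, n = 3 each).

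Among the 5 store-operated genes both sensors and Orai2 rose, where 29.3% of all tested genes were higher, and Orai1 and Orai3 did not pass. Stim2, the sensor that responds to small losses of store calcium, stood at 46.6, 46.6 and 48.9 CPM in control and at 62.4, 62.2 and 63.2 CPM in Dia2 libraries (log2 fold change 0.40 ± 0.05, edgeR adjusted p = 1.21e-05). Stim1, the sensor of full store depletion, stood at 33.1, 33.4 and 30.1 CPM and at 39.3, 42.7 and 40.5 CPM (0.34 ± 0.06, adjusted p = 0.000511). Neither gene overlapped between the groups. Of the pore genes, Orai2 rose 1.23-fold from 26.7 ± 1.09 to 32.8 ± 2.1 CPM (adjusted p = 0.00174). Orai3 had a log2 fold change of 0.07 ± 0.07 (adjusted p = 0.423).

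Orai1, the pore subunit of the classic store-operated current, read 11.9, 11.7 and 9.78 CPM in control and 9.89, 10.1 and 10.6 CPM in Dia2 libraries, and the groups overlapped through control replicate 3. Its log2 fold change of -0.13 ± 0.08 did not pass (adjusted p = 0.19), but without control replicate 3 it was -0.22 with an adjusted p of 0.0103. Over all alternatives its adjusted p ranged from 0.0103 to 0.471. The level of Stim1 relative to Orai1, per length, was 1.44, 1.48 and 1.60 in control and 2.06, 2.20 and 1.99 in Dia2 libraries. That of Orai2 relative to Orai1 was 1.17 ± 0.0861 and 1.56 ± 0.0628. Both ratios were higher in each Dia2 library than in any control library.

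**Figure D4:**
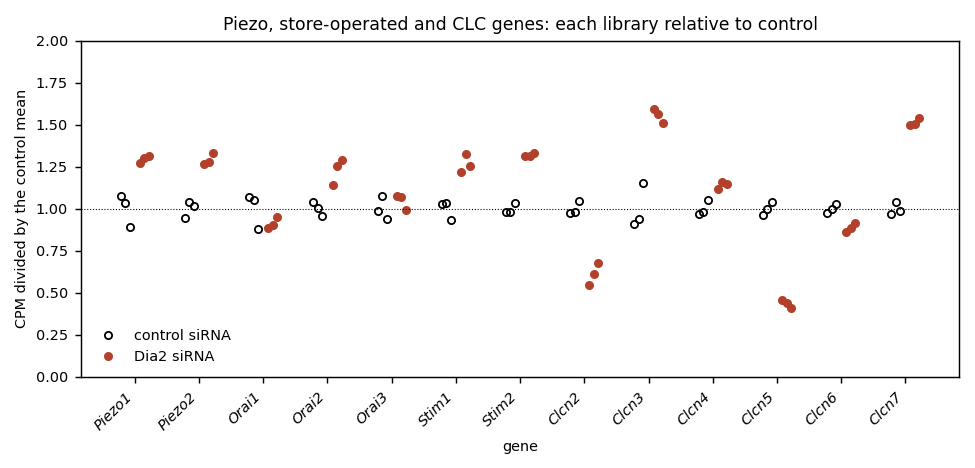
CPM of each library divided by the gene's control mean (y axis) for the Piezo, Orai, Stim and CLC genes with a mean of at least 1 CPM. Open circles are the 3 control libraries and filled circles the 3 Dia2 libraries; Clcn5 and Clcn2 lie well below the dotted line at 1 in the Dia2 libraries, and Clcn3 and Clcn7 well above it.

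The pores of voltage-gated calcium channels were led by an L-type gene, and scarcer pore genes of other types rose. Cacna1c, the L-type pore common to heart and smooth muscle, was the most abundant pore at 3.38 CPM per kb in control cells. It stood at 29.7, 31.3 and 30.9 CPM in control and 27.1, 27.3 and 28.4 CPM in Dia2 libraries, without overlap. This fall of 0.15 ± 0.06 on the log2 scale (adjusted p = 0.0362) was near the threshold: without control replicate 2, Dia2 replicate 1 or Dia2 replicate 2 the adjusted p was 0.0864, 0.112 and 0.116 (range over all alternatives 0.0251 to 0.116). Cacna1a, the P/Q-type pore, rose 1.42-fold from 10.2 ± 0.676 to 14.4 ± 0.495 CPM (edgeR adjusted p = 5.82e-05).

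Cacna1b, the N-type pore of nerve terminals, had 52, 56 and 36 counts in control and 106, 172 and 152 counts in Dia2 libraries, or 0.556 ± 0.113 and 1.61 ± 0.192 CPM. It was 2.92-fold higher (log2 fold change 1.54 ± 0.21, adjusted p = 5.11e-05). The T-type pore gene Cacna1g, which opens near the resting voltage, had 10, 4 and 16 counts in control and 42, 110 and 72 counts in Dia2 libraries. Its log2 fold change of 2.82 ± 0.47 (adjusted p = 0.000238) was the largest of the channel genes, but it entered the test only through the Dia2 group and its control counts lay close to the floor. The other 6 pore genes had at most 18 counts in a library. Of 10 neuron markers 7 were too scarce to test, with at most 12 counts, and Rbfox3 had 0 counts in all libraries. The neuron list summed to 12.7 to 13.3 CPM in control and 18.3 to 19.0 CPM in Dia2 libraries, where Map2 and Syn1 were higher and Gap43 was lower, and its part in the rise of Cacna1b was not tested.

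The auxiliary calcium channel subunits were led by Cacnb3 and Cacna2d1. Cacnb3, a cytoplasmic beta subunit that brings the pore to the membrane, rose from 82 ± 5.64 CPM to a mean of 99.3 ± 0.354 CPM (0.28 ± 0.05 on the log2 scale, adjusted p = 0.000706). Cacnb4 fell from 3.03 ± 0.476 to 2.23 ± 0.275 CPM (-0.44 ± 0.15, adjusted p = 0.0228), which did not pass without control replicate 3, Dia2 replicate 1 or Dia2 replicate 2 (adjusted p 0.0749, 0.0591 and 0.0949; range over all alternatives 0.0138 to 0.126). A transcript on the other strand, A430018G15Rik, shares 16.0% of the Cacnb4 exon bases. Cacna2d1, the alpha2delta subunit bound by gabapentin, read 77 ± 8.44 and 73.6 ± 1.4 CPM and did not pass (-0.06 ± 0.07, adjusted p = 0.433). Its difference turned positive without control replicate 3, at 0.03. Cacng7, of a family that also escorts AMPA receptors, read 4.84, 4.38 and 3.83 CPM in control and 10.8, 10.7 and 11.6 CPM in Dia2 libraries. It rose 2.52-fold (1.33 ± 0.09, adjusted p = 2.06e-07), with the groups far apart. The remaining tested members, Cacnb1, Cacnb2, Cacna2d3 and Cacng8, did not pass, with log2 fold changes from -0.22 to 0.14.

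The TRP rows that changed went in both directions. Of 11 TRP rows tested, 2 were higher and 5 lower, where 29.3% and 29.9% of all tested genes were. The 5 lower rows include Trpc4ap, which encodes no channel, and Trpc2, whose counts cannot be assigned to it alone. Trpm7, a magnesium-permeable channel fused to a protein kinase, stood at 170, 169 and 193 CPM in control and 160, 150 and 137 CPM in Dia2 libraries, a fall of 0.25 ± 0.07 on the log2 scale (edgeR adjusted p = 0.0059). Control replicate 3 was the highest library and Dia2 replicate 3 the lowest. Trpm3, a heat- and steroid-gated channel, fell 2.09-fold from 2.87 ± 0.189 to 1.37 ± 0.173 CPM (adjusted p = 3.98e-05). Trpm4, which calcium opens to sodium, rose from 8.62 ± 1.09 to 10.5 ± 0.714 CPM (0.29 ± 0.09, adjusted p = 0.0186), a call lost without control replicate 1, Dia2 replicate 2 or Dia2 replicate 3 (adjusted p 0.069, 0.0527 and 0.095; range over all alternatives 0.00567 to 0.095).

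Trpc6, opened by diacylglycerol, read 3.97, 5.31 and 5.16 CPM in control and 3.32, 3.42 and 3.42 CPM in Dia2 libraries (log2 fold change -0.50 ± 0.12, adjusted p = 0.00372). Trpc2 fell from 7.03 ± 0.296 to 5.39 ± 0.25 CPM (-0.39 ± 0.08), but all of its annotated exon bases are shared with the overlapping readthrough gene Xntrpc, so the counts cannot be assigned to it alone. Trpc4ap fell by 0.14 ± 0.05 (adjusted p = 0.021), a call lost on leaving out any library but control replicate 3, with adjusted p-values from 0.0524 to 0.0972 (range over all alternatives 6.65e-05 to 0.0972). Trpc1 rose from 4.11 ± 0.863 to 5.28 ± 0.449 CPM (0.36 ± 0.14, adjusted p = 0.0446) and did not pass without control replicate 2, Dia2 replicate 1 or Dia2 replicate 2 (adjusted p 0.167, 0.124 and 0.119; range over all alternatives 0.00772 to 0.167). Of 3 tested TRPV genes 0 passed in the edgeR fit, where 59.2% of all tested genes did. Their unadjusted edgeR p-values ranged from 0.451 to 0.817, and 0 passed in DESeq2 or limma-voom. Trpv2 read 19.1 ± 1.63 and 18.4 ± 1.05 CPM, and the osmosensitive Trpv4 read 0.701 ± 0.12 and 0.789 ± 0.0892 CPM (0.15 ± 0.23, adjusted p = 0.585).

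Most of the tested calcium- and sodium-activated potassium channel genes rose. Of 6 tested, 5 were higher at an adjusted p of 0.05, and the other, Kcnma1, did not pass. Over all tested genes 29.3% were higher and 29.9% lower. Kcnn4 (chromosome 7, 24370263 to 24385212), the intermediate-conductance channel that keeps calcium entry going in lymphocytes and dividing cells, had 48, 52 and 26 counts in control and 172, 290 and 202 counts in Dia2 libraries. Its level of 0.479 ± 0.136 CPM rose 5.19-fold to 2.49 ± 0.465 CPM (log2 fold change 2.37 ± 0.22, edgeR adjusted p = 2.13e-06), with every Dia2 library well above the controls. Blood and macrophage markers, which include cells that use Kcnn4, summed to 20.8 to 22.8 CPM in control and 12.9 to 14.3 CPM in Dia2 libraries. Cd14 held the largest part of these sums. Of the 10 markers 4, including Cd14, were lower, and Ptprc, Spi1, Itgam and Adgre1 had at most 10 counts. Csf1r and Lyz2 did not pass (log2 fold changes 0.03 ± 0.17 and 0.48 ± 0.23, edgeR adjusted p = 0.877 and 0.0935). The part of these markers in the rise of Kcnn4 was not tested.

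Kcnn1, a small-conductance channel gene, rose 1.98-fold to 2.6 ± 0.0964 CPM, and Kcnt2, the pore of a sodium-activated channel, rose 1.8-fold to 1.14 ± 0.0957 CPM. Kcnma1, the pore of the large-conductance BK channel long recorded in mesenchymal stem cells, was scarce, at 0.577 ± 0.182 and 0.532 ± 0.081 CPM, and did not pass (log2 fold change -0.09 ± 0.30, adjusted p = 0.822). The sign of its difference changed without control replicate 3, to 0.10. Its beta subunit genes were higher: Kcnmb1 rose from 3.96 ± 0.82 to 5.46 ± 0.333 CPM (0.46 ± 0.13, adjusted p = 0.0107), and Kcnmb4 rose from 1.03 ± 0.203 to 1.53 ± 0.198 CPM (0.59 ± 0.20, adjusted p = 0.022). Per length, Kcnmb1 stood at 0.947 CPM per kb in control cells and the pore at 0.0737. Smooth muscle and pericyte markers, which mark cells that express Kcnmb1 strongly, summed to 2574 to 2891 CPM in control and 3478 to 3701 CPM in Dia2 libraries. Acta2 held most of these sums (2326 ± 146 and 2990 ± 91.1 CPM). Of the 7 markers 5 were higher, and Des and Myh11 did not pass. Myh11 was scarce, at 0.465 ± 0.136 and 0.536 ± 0.0179 CPM. The part of these markers in the rise of Kcnmb1 was not tested. The call of Kcnmb4 was lost without control replicate 1 or Dia2 replicate 3 (adjusted p 0.0961 and 0.0982; range over all alternatives 0.00804 to 0.0982), and the antisense transcript Kcnmb4os shares 31.5% of its exon bases.

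Inward rectifier genes rose in 3 of 5 tested and fell in 1, where 29.3% of all tested genes were higher and 29.9% lower. Kcnj2, the classic strong inward rectifier that sets the resting voltage, was the one present above 1 CPM. It stood at 8.28, 8.57 and 9.63 CPM in control and 17.9, 16.7 and 15.3 CPM in Dia2 libraries, a clear separation. This is a 1.89-fold rise (log2 fold change 0.92 ± 0.08, adjusted p = 1.24e-06). The others lay at low counts. Kcnj4 rose from 20, 24 and 18 counts to 46, 62 and 48 (adjusted p = 0.00325), and Kcnj14 fell from 96, 66 and 28 counts to 12, 28 and 26 (-1.50 ± 0.36, adjusted p = 0.00343). Kcnj15 rose by 1.13 ± 0.36 (adjusted p = 0.017) but entered the test only through the Dia2 group, and lost its call without control replicate 2, control replicate 3 or Dia2 replicate 3 (adjusted p 0.0629, 0.0634 and 0.0643; range over all alternatives 0.0113 to 0.0643).

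Of the K2P genes, which carry the background leak of potassium, Kcnk2 changed, out of 4 tested, where 59.2% of all tested genes changed. Kcnk2 (chromosome 1, 189207930 to 189344192), which encodes the stretch- and lipid-sensitive channel TREK-1, stood at 7.89, 7.62 and 6.96 CPM in control and 3.48, 3.71 and 3.87 CPM in Dia2 libraries. It fell 2.03-fold (log2 fold change -1.02 ± 0.09, edgeR adjusted p = 1.53e-06), opposite in direction to both Piezo genes. A transcript on the other strand, A430027H14Rik, shares 12.2% of its exon bases. Kcnk5, Kcnk6 and Kcnk7 did not pass, with log2 fold changes of -0.01, -0.03 and 0.34, and the other 10 genes had at most 20 counts in a library.

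Voltage-gated potassium pores were mostly near or below detection. Kcnd1, a pore of fast-inactivating A-type current, led them and fell from 14.3, 15.1 and 12.7 CPM to 10.3, 10.3 and 9.77 CPM (log2 fold change -0.48 ± 0.08, adjusted p = 0.000166). Kcnh2, the hERG channel of cardiac repolarisation, fell 1.78-fold from 2.43 ± 0.325 to 1.37 ± 0.227 CPM (adjusted p = 0.000901). In the other direction, Kcnc2, a pore of fast-spiking neurons, rose from 4.74, 4.68 and 5.31 CPM to 7.31, 8.06 and 8.25 CPM (0.69 ± 0.09, adjusted p = 3.76e-05). Kcnq5, a pore of the M-current, rose from 8, 6 and 12 counts to 26, 24 and 28 (1.54 ± 0.44, adjusted p = 0.00967) and passed the expression filter through the Dia2 group alone. Without control replicate 1 its adjusted p was 0.0568 (range over all alternatives 0.00315 to 0.0568). Kcnh1, a channel tied to proliferation, had 8 to 14 counts in every library and did not pass (adjusted p = 0.852). The other 30 pore genes had at most 18 counts in a library.

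Of the 3 beta subunit genes of voltage-gated potassium channels, which encode cytoplasmic proteins related to aldo-keto reductases, Kcnab1 and Kcnab2 rose. Over all tested genes 29.3% were higher. Kcnab2 read 2.1, 2.36 and 1.74 CPM in control and 3.99, 5.06 and 4.17 CPM in Dia2 libraries (2.12-fold, log2 fold change 1.09 ± 0.14, adjusted p = 3.29e-05). Kcnab1 read 1.26, 1.05 and 1.13 CPM and 2.47, 2.73 and 1.8 CPM (2.02-fold, adjusted p = 0.000418). Kcnab3 had a log2 fold change of 0.40 ± 0.17 and did not pass (adjusted p = 0.0605), although its libraries did not overlap. The 4 tested genes of the Kcnip and Kcnrg groups, all under 1 CPM, did not pass either.

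**Figure D5:**
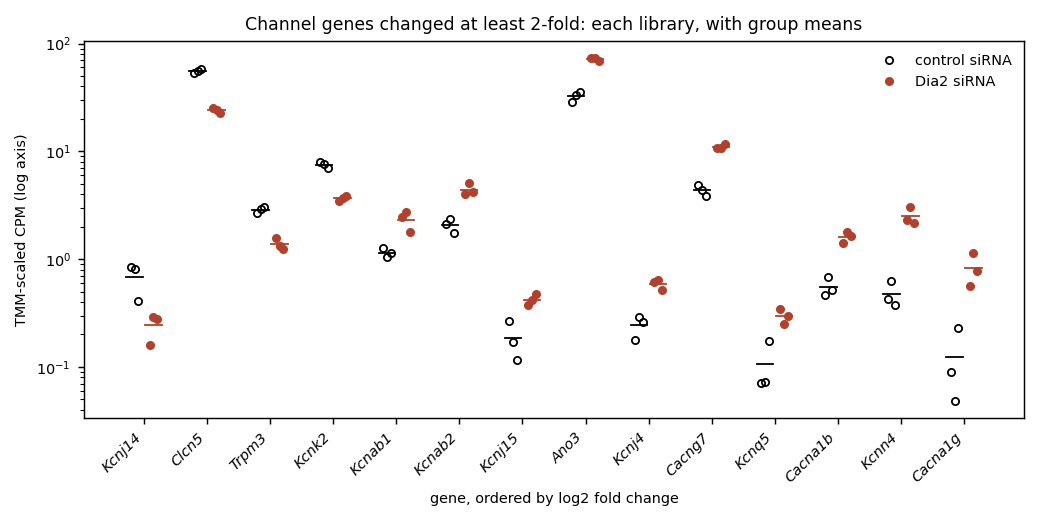
TMM-scaled CPM on a log axis for each library of the 14 channel genes changed at least 2-fold at an adjusted p of 0.05, ordered by log2 fold change. Open circles are control libraries, filled circles Dia2 libraries and short lines group means; Clcn5 and Ano3 are the abundant genes among them, while Kcnj14, Kcnj15, Kcnj4, Kcnq5 and Cacna1g lie mostly under 1 CPM.

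The CLC family divided. Clcn5, an endosomal exchanger needed for protein uptake in the kidney tubule, showed the largest fall among the abundant channel genes. Clcn5 (chromosome X, 7158412 to 7319358) read 53.8, 55.9 and 58.2 CPM in control and 25.4, 24.4 and 22.8 CPM in Dia2 libraries, far apart. It fell 2.31-fold (log2 fold change -1.21 ± 0.06, edgeR adjusted p = 1.54e-08). Clcn2, a plasma membrane channel opened by hyperpolarisation, fell 1.63-fold from 11.7 ± 0.458 to 7.17 ± 0.762 CPM (adjusted p = 1.78e-05). Clcn6, a late endosomal exchanger, fell by 0.17 ± 0.07 (adjusted p = 0.0418), but did not pass when any 1 library was left out, with adjusted p-values from 0.0508 to 0.135 (range over all alternatives 0.0347 to 0.15).

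Clcn7, the lysosomal exchanger that osteoclasts also need to dissolve bone, read 51.5, 55.2 and 52.3 CPM in control and 79.4, 79.7 and 81.8 CPM in Dia2 libraries, and rose 1.51-fold (log2 fold change 0.60 ± 0.05, adjusted p = 4.73e-07). Ostm1, the subunit that Clcn7 requires, did not pass (-0.01, adjusted p = 0.889). The endosomal Clcn3 read 23, 23.8 and 29.3 CPM and then 40.3, 39.7 and 38.2 CPM, a 1.56-fold rise (adjusted p = 3.71e-05), and Clcn4 rose 1.14-fold (adjusted p = 0.0055). A transcript on the other strand, Gm45631, shares 11.5% of the Clcn4 exon bases. Per length, Clcn3 stood at 0.308, 0.307 and 0.362 of Clcn5 in control and at 1.14, 1.17 and 1.21 of it in Dia2 libraries. The order of these endosomal exchangers was thus reversed in every Dia2 library. Clcn1, the muscle channel, had 12 to 24 counts in a library and did not pass (0.15 ± 0.47, adjusted p = 0.802).

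Among the anoctamins, Ano3 stood out. Ano3 (chromosome 2, 110658140 to 110950244), a member studied mainly in brain and known from an inherited dystonia, read 28.4, 33.4 and 35.9 CPM in control and 73.7, 73.5 and 68.6 CPM in Dia2 libraries. It rose 2.21-fold (log2 fold change 1.15 ± 0.08, edgeR adjusted p = 1.24e-07), the largest rise among channel genes above 30 CPM. Ano10 rose from 59.5 ± 2.17 to 69.1 ± 0.741 CPM (0.22 ± 0.05, adjusted p = 0.00161). The scramblase Ano6 read 259, 260 and 250 CPM in control and 274, 272 and 274 CPM in Dia2 libraries, which did not overlap but did not pass (0.09 ± 0.04, adjusted p = 0.0771). Ano8 read 22.7 ± 1.08 and 22.4 ± 0.902 CPM (adjusted p = 0.836). Ano1, the epithelial and smooth muscle chloride channel of this family, was scarce at 0.438 ± 0.0289 and 0.602 ± 0.116 CPM (0.46 ± 0.27, adjusted p = 0.155).

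Short words in the 3′ UTRs were listed for the tested genes, because an siRNA can pair with other transcripts through its seed. The target of the Dia2 siRNA seed (bases 2 to 8 of its antisense strand), AACTTAA, occurred on the sense strand of annotated GENCODE M21 3′ UTRs in 10 of 73 channel genes (13.7%, beside 14.0% of all tested genes with a 3′ UTR). Of these 10 genes, 6 were higher (60%, beside 35.5% of all tested genes with the word) and 3 lower (30%, beside 28.0%). Trpm7, Kcnd1 and Cacnb4 were the lower ones. Kcnt2, Kcnab1, Stim2, Clcn4, Kcnmb1 and Kcnj15 were the higher ones, and Kcnma1 did not pass. The overlapping words TATGTGA and ATGTGAA had been picked from the fold changes of all genes in these libraries as frequent in falling genes. One of these words was present in 18 channel genes (24.7%, beside 24.5%), of which 5 were higher (27.8%, beside 26.5% of all genes with either word) and 5 lower (27.8%, beside 39.4%). Because the words were picked on these same fold changes, the counts only describe the genes. The word GCAGTAC, picked in the same way from rising genes, was present in 3 channel genes (Clcn7, Kcnk6 and Kcnma1). The sites below, with the word in capitals, are shown for 5 of these 10 changed genes, 3 lower and then 2 higher, so that copies from both directions can be compared; the choice of genes was made after their values were seen.
Clcn5, chromosome X, 7154573 to 7154579, minus strand: catggacaccATGTGAAtttctctgta
Clcn5, chromosome X, 7156642 to 7156648, minus strand: aggactggtgATGTGAAataatcgcta
Trpm7, chromosome 2, 126791964 to 126791970, minus strand: gaatgtgtcaATGTGAAttctatttct
Trpc6, chromosome 9, 8628088 to 8628094, plus strand: atgtggattcATGTGAAaacacacaca
Ano3, chromosome 2, 110656469 to 110656475, minus strand: tatttatacaATGTGAAatattagatt
Stim1, chromosome 7, 102437020 to 102437026, plus strand: atggtatatgTATGTGAaggctgctgt
All are positions in GRCm38. At the Stim1 site the word ATGTGAA also occurs, at 102437021 to 102437027, overlapping the word in capitals. The sites of Clcn5, Ano3 and Stim1 lie beyond the gene end listed in the table, in longer annotated transcripts. Both copies in Clcn5 and the single ones in Trpm7 and Trpc6 belong to genes that fell, those in Ano3 and Stim1 to genes that rose. The part of these words in any change was not tested.

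A further list of 73 pumps, exchangers, store channels, chloride transporters and calcineurin genes had 61 tested members. Of these, 28 were higher (45.9%, beside 29.3% of all tested genes) and 15 lower (24.6%, beside 29.9%). In all, 70.5% changed, beside 59.2%. Their median log2 fold change was 0.24, or 0.14 over the 51 with a mean of at least 1 CPM. Changes of at least 2-fold were found in 6 of the 61 (9.84%, beside 8.58%). Among the 51 with a mean of at least 1 CPM, 39 changed (76.5%, beside 65.8% of all such genes), and 2 changed at least 2-fold (3.92%, beside 5.88%). The volume-regulated anion channel genes rose in 4 of 5 members, where 29.3% of all tested genes were higher. Its obligatory subunit Lrrc8a rose 1.66-fold from 36.8 ± 1.91 to 61.3 ± 7.99 CPM, Lrrc8d 1.72-fold, Lrrc8c 1.44-fold and Lrrc8b 1.2-fold, while Lrrc8e did not pass (edgeR adjusted p = 0.373).

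The largest rises of this list were in calcium pumps. Atp2b3 and Atp2b4 of the plasma membrane rose 5.61-fold to 1.45 ± 0.184 CPM and 3.25-fold to 11.6 ± 0.653 CPM, and Atp2a3 of the endoplasmic reticulum rose 4.59-fold to 0.719 ± 0.0684 CPM. Nfatc2, a calcium-dependent transcription factor, rose 3.18-fold to 0.523 ± 0.158 CPM. Atp2a3 and Nfatc2 entered the test only through the Dia2 group, where they were higher. The largest falls were those of the release channel Ryr1 (2.87-fold, to 0.219 ± 0.0769 CPM), the mitochondrial uptake regulator Micu3 (1.75-fold), Ttyh3 (1.42-fold) and the sodium pump subunit Atp1b3 (1.33-fold).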

How the data were processed

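RNA was sequenced from 6 libraries, 3 per group. The deposited table gives, per the file headers, a gene count, an RPKM value and a length for each gene. The submitters' processing notes name bcl2fastq, TopHat2 2.0.6 and HTSeq, with the human builds hg19 and GRCh37. The table holds mouse genes, and because all 165 channel rows overlapped their RefSeq namesakes in GRCm38.p6, positions were read in that build. The annotation and the handling of strand and multi-mapping reads were not given in the sources used here. RPKM as deposited is each count over length and over 1 library total, and served for that check only. The deposited counts are whole numbers and were tested as they stand.

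Counts were filtered with filterByExpr (minimum 10 counts, 15 in total), scaled by TMM and compared with edgeR 4.0.16's quasi-likelihood test (R 4.3.3, limma 3.58.1), with Benjamini-Hochberg adjustment over all 14151 genes. Groups and replicate numbers came from the titles. The script was tested on simulated data. The SE and SD values include the spread among libraries, and the floors cover counting error only.

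Members, lists and named genes (a fixed set of 22, up to 4 per family with the largest change, the 10 highest levels, and up to 4 rises and 4 falls of the related genes) were chosen with earlier results of these data known. Other changed members are given to describe their family. Of 6 endothelial markers 3 were tested and 1 (Kdr) was lower, and of 7 smooth muscle and pericyte markers, all tested, 5 were higher. Of 10 striated muscle markers 0 of the 3 tested changed. Over all tested genes 59.2% did. Of the striated muscle genes 3 were tested, edgeR's smallest unadjusted p being 0.195 and 0 passing in DESeq2 or limma-voom. Alternatives changed the scaling, filter, test (DESeq2 1.42.0, limma-voom), replicate block, halving of the even counts, removal of Rn45s and Lars2, and the libraries used.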

Additional observations from a re-analysis of the deposited data

How the results depend on the processing

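The numbers of changed genes stayed within 1.5 times the reported ones under all 17 alternatives, 1 of which (dropping control replicate 3 and Dia2 replicate 1, which hold the most Rn45s) was chosen after seeing the data. Higher channel genes numbered 26 to 32 and lower ones 10 to 14, or 27 to 30 and 10 to 13 when 1 library was left out. Of 43 changed channel genes 34 kept their call in every alternative that tested them, and the other 9 are named with their values in the report. Of the 34, Cacna1g, Kcnj4, Kcnj14 and Kcnt2 were tested in 16 alternatives, since they fall outside a filter on a mean of at least 1 CPM. No changed channel gene reversed its direction in these fits. Of the 30 channel genes that did not pass, 13 changed sign in some alternative, with 0 of these differences past the threshold. Under upper-quartile factors these were Ano8 (0.02), Kcnk5 (0.02) and Kcnk6 (0.00498). Among the genes chosen for description by rule they were Kcnma1 (0.0027 in limma-voom, 0.17 without those high-Rn45s libraries, -0.3507 to 0.1020 when 1 library was left out), Trpv2 (-0.1172 to 0.0038 when 1 was left out), Cacna2d1 (0.0127 without the high-Rn45s libraries, -0.1193 to 0.0257 when 1 was left out) and Kcnh1 (0.0266 without the high-Rn45s libraries), and the cause was not tested. Replicate numbers are shared by the groups, and the deviations of same-numbered libraries from their group means correlated at -0.0844, -0.0166 and -0.193. With 3 libraries per group, these values cannot show whether the libraries were paired. With a replicate block, 29 channel genes were higher and 11 lower, the calls of Cacna1c, Clcn6 and Trpc4ap being lost. Depth limits what can be said of the 92 untested genes, and no call on them was made.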
